A study of Mus musculus with 2 samples.

Results

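The genes of cholesterol synthesis and sterol handling were compared between the hippocampus of mice fed astaxanthin (ASX) and that of mice on the control diet. The set holds 32 genes grouped by their function, and it was chosen with earlier results of these data known. A gene was found through array probes whose RefSeq accession carries its symbol, and its brightest probe gave its value. In all, 31 of the 32 were measured, out of 13318 measured genes with a symbol and 23603 measured genes and transcripts. No probe of the array matched Idi1, the gene of isopentenyl diphosphate isomerase. On each array the scanner software put all 31 well above background in both RNAs, so none entered through the RNA in which it was brighter.

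Both groups were male C57BL/6J mice, 11 weeks old and 26 to 28 g, that had 1 week of acclimatization on powdered chow. For 4 weeks the ASX group received chow with 0.5% by weight of a powder that contains 2% astaxanthin, a carotenoid from the alga Haematococcus pluvialis, and the control group chow with 0% of it and placebo powder. The labels name no genetic alteration in either group. Total RNA of each diet was hybridised together on 2 two-colour arrays, array 1 with ASX in Cy5 and array 2 with ASX in Cy3, and each array is titled with 4 mice without a word on pooling. The arrays were counted as 1 replicate of the diet comparison, so there is no test of the diet, and each SD given is a technical one between the 2 arrays. Both RNAs came from whole tissue, in which fewer cells of a type and less RNA per cell cannot be told apart.

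Between 75.8% and 78.2% of the spots for mouse transcripts were well above background for each RNA on each array, and no spot was saturated. Of 10 genes typical of hippocampal neurons, among them Prox1 and Neurod6, 9 had a matched probe, and those 9 were measured with a median log2 ratio of 0.03. Marker genes of meningeal fibroblasts had a median of 0.19 (9 of 9 measured) and those of striatum -0.24 (7 of 7 measured); their part in the values below was not tested.

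Cholesterol is made from acetyl-CoA through mevalonate, squalene and lanosterol. The brain makes its own, because the blood-brain barrier keeps lipoproteins out; glia hand it to neurons on apolipoprotein E, and neurons dispose of it by hydroxylation to 24S-hydroxycholesterol. When the membranes of the endoplasmic reticulum run low in sterol, Scap escorts the SREBP transcription factors (Srebf1 and Srebf2) to the Golgi for cleavage, and they switch on the genes of synthesis and uptake; the Insig proteins hold Scap back when sterol is plentiful. The liver X receptors (Nr1h2 and Nr1h3) sense oxysterols and switch on export genes such as Abca1 and Abcg1.

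SREBP acts through short promoter elements, usually beside sites for NF-Y and Sp1. Promoter sequences of 26 of the 32 genes, in 37 windows of the 250 bases before a start, came from RefSeq (GRCm38.p6). They were searched on both strands for the sterol regulatory element TCACNCCAC, the NF-Y box CCAAT, the Sp1 box GGGCGG and the E-box CACGTG. The sterol element as spelled was in 1 of the 37 windows (2.70%), that of Hmgcs1, against 1.05% of all 32851 windows. The NF-Y box was in 21 (56.8%, against 33.8%), the Sp1 box in 25 (67.6%, against 32.7%) and the E-box in 6 (16.2%, against 6.02%). Several windows can belong to 1 gene and overlap, and a match of letters is a description and not a binding site. The windows of 3 genes are printed 5′ to 3′ in the direction of the gene: Hmgcs1 for its sterol element, Insig1 as the member with the highest mean ratio, and Mvk as the member with the most NF-Y boxes in 1 window (5). Capitals mark the sterol element, whose last base lies 129 bases before the start of Hmgcs1, and the NF-Y boxes, read on the other strand as ATTGG; in these windows they do not overlap. The Hmgcs1 window is chr13:119690101-119690350 (+ strand), that of Insig1 chr5:28071162-28071411 (+ strand) and that of Mvk chr5:114444019-114444268 (+ strand).
Hmgcs1: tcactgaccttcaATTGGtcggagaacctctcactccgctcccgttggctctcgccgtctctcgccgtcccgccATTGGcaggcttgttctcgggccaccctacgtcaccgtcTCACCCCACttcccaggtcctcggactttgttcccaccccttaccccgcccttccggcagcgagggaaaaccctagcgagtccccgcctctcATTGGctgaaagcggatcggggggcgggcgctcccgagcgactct
Insig1: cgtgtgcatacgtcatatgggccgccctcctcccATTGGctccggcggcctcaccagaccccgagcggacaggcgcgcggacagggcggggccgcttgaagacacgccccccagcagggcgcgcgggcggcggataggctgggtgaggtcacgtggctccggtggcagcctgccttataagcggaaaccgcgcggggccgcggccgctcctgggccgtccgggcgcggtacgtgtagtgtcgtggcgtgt
Mvk: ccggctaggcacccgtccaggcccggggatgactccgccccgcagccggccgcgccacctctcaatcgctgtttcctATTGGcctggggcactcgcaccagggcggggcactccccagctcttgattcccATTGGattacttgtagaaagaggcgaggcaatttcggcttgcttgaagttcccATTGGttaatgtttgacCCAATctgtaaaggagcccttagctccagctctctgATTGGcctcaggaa

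With loess, sterol genes lay close to equal levels in the 2 RNAs. The level that counts as equal depended on the scaling. The sterol median was -0.21 with median centring and -0.40 with spike-in scaling, beside -0.16 and -0.35 for genes with a symbol. The values that follow are those with loess. Mean log2 ratios of ASX over control ran from -0.11 for Fdps to 0.16 for Insig1, that is from 0.926 to 1.12 times the control level. A call needed a gap of 1.5-fold or more in 1 diet direction on each array. By that rule 0 of the 31 were higher and 0 lower, where 0.0300% of the genes with a symbol were higher and 0.0300% lower. In the mean of the arrays 0 members were 1.2-fold apart, as 1.43% of genes with a symbol were, and 1, Insig1, was 1.1-fold apart, as 12.0% were. The median over the 31 was -0.017, beside -0.019 over all genes with a symbol; it was -0.035 on array 1 and -0.061 on array 2, where those genes had -0.027 and -0.017. With 1 replicate these values do not show that the diets were alike, and a difference of any size was not tested. The spread between arrays, a median SD of 0.12 over the members, also holds dye effects that cancel in the mean. It therefore does not give the smallest diet difference that could be resolved.

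With loess, the 2 arrays had opposite signs for most sterol genes. Of the 31, 6 were below 0 on both arrays (Fdps, Lss, Ebp, Dhcr7, Nr1h3 and Npc2), as 26.4% of genes with a symbol were. Only Insig1 was above 0 on both, as 14.3% were. The other 24 had opposite signs, 13 above 0 on array 1 and 11 on array 2, as 59.3% of genes with a symbol had. This turned with the scaling, for other genes as well as for sterol genes. Median centring put 24 members below 0 on each array, beside 61.4% of genes with a symbol. Spike-in scaling put 29 members there, beside 83.1%. That last count reads each array alone, where the nominal ratios of the spike-ins do not cancel. Across members, which are not replicates and share the 2 arrays, the ratios on array 1 and array 2 correlated at a Pearson r of -0.70 and a Spearman rho of -0.54 (n = 31), and -0.48 and -0.49 without Apoe; over genes with a symbol r and rho were -0.25 and -0.27. A ratio that moves with the dye has opposite signs on the arrays once both are turned to ASX over control. The plot of both arrays against each other places most sterol genes in the quadrants of opposite signs. Some, such as Cyp51 and Stard4, lie well off the line of equal and opposite ratios, and the part of the dye was not tested.

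**Figure D1:**
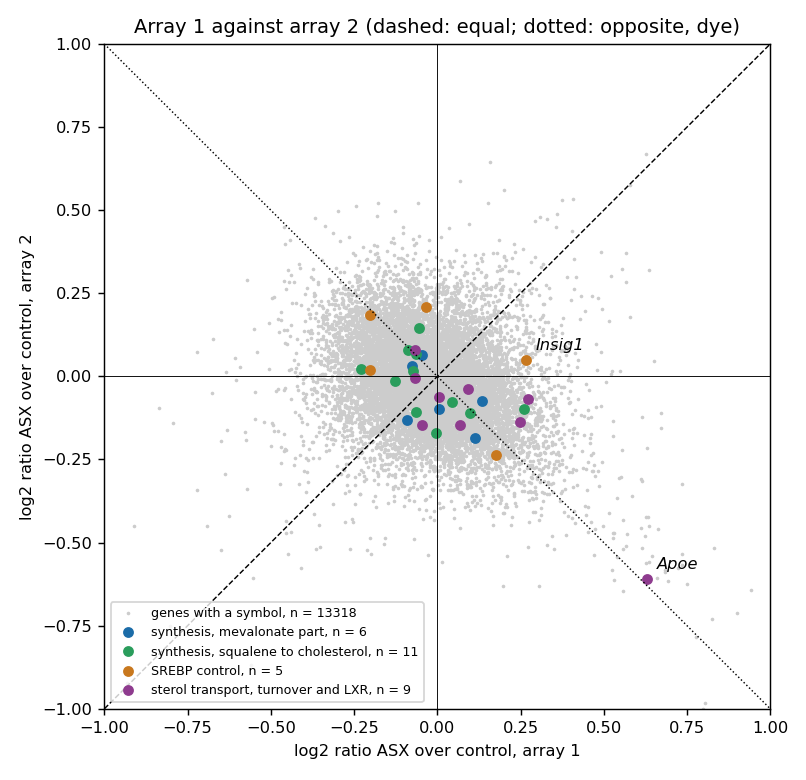
Log2 ratio of ASX over control on array 1 (x axis) against array 2 (y axis), for genes with a symbol (grey points, n = 13318, of which 12 lie outside the axes) and for the 31 sterol genes, coloured by role. Points on the dashed line have equal ratios on both arrays and points on the dotted line opposite ones; Apoe sits on the dotted line at 0.63 and -0.61, and Insig1 is the sterol gene above 0 on both.

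The enzymes of the mevalonate part, from acetyl-CoA to farnesyl diphosphate, had a median log2 ratio of -0.029 (6 of 7 measured). Hmgcs1, which makes HMG-CoA and whose promoter is printed above, had log2 signals of 13.73 for ASX and 13.77 for control on array 1, and 13.80 and 13.73 on array 2. These signals are per channel, so they also carry the dyes. Its ratios were -0.046 and 0.07, a mean of 0.0099, and the 2 RNAs changed places between the arrays. Fdps, which makes farnesyl diphosphate, had 11.62 for ASX and 11.71 for control on array 1, and 11.53 and 11.66 on array 2. It was lower in the ASX RNA on both arrays, with ratios of -0.09 and -0.13, the lowest mean of the set (-0.11, SD 0.028), and had a single probe.

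Acat2, the cytosolic thiolase of the first step, had 0.11 and -0.19, and Mvk, mevalonate kinase, 0.0038 and -0.10. Pmvk, the next kinase, had -0.08 and 0.03, and Mvd, the decarboxylase that yields isopentenyl diphosphate, had 0.14 and -0.07. Mvd had the highest mean of these enzymes, 0.03. Each of these 4 changed sign between the arrays, though Mvk barely left 0 on array 1.

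**Figure D2:**
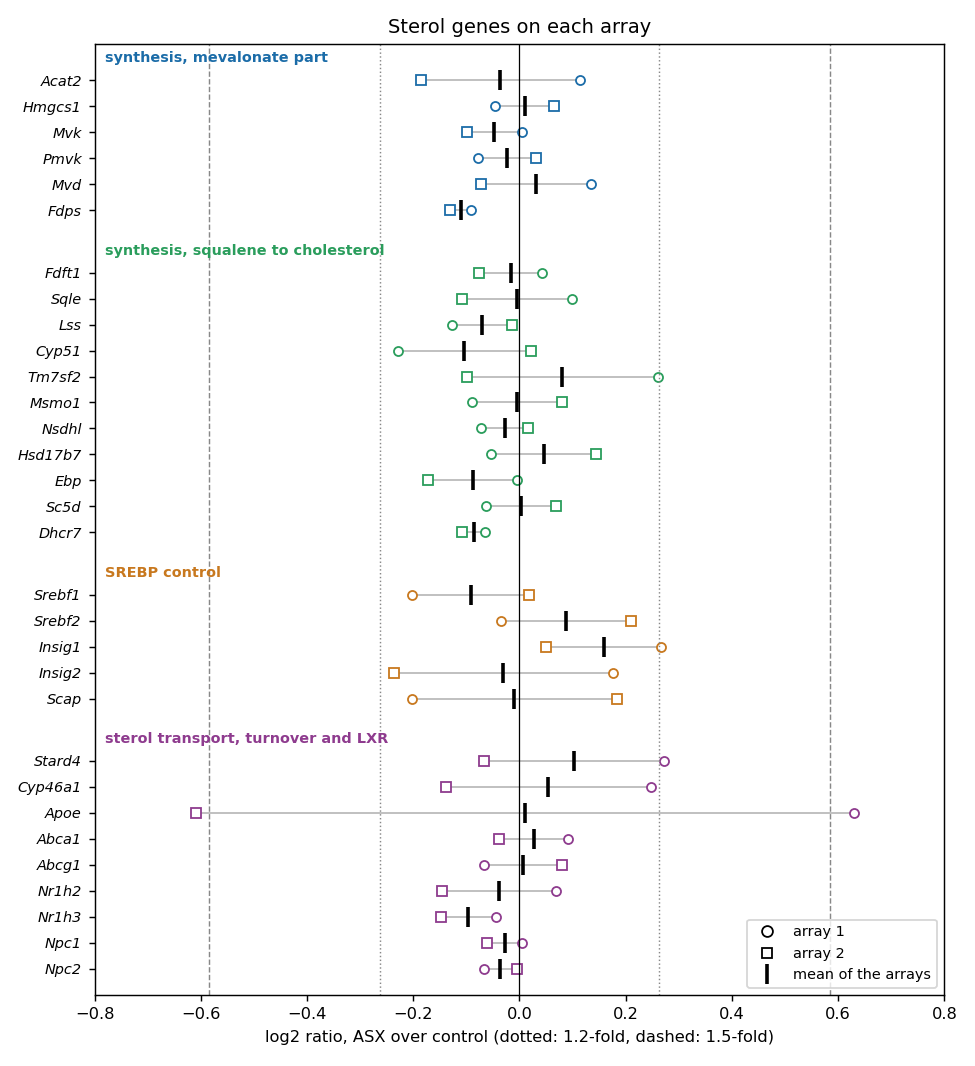
Log2 ratio of ASX over control (x axis) of the 31 measured sterol genes, one per row and grouped by role, on array 1 (circles), array 2 (squares) and in the mean (black ticks). No mean reaches the dotted lines at 1.2-fold; Apoe alone passes the dashed lines at 1.5-fold, and it does so in opposite directions on the 2 arrays.

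The 11 enzymes from squalene to cholesterol were all measured, with a median of -0.017. Of them, 3 were below 0 on both arrays, a share of 27.3% beside the 26.4% of genes with a symbol, and 0 above. Dhcr7, which reduces 7-dehydrocholesterol to cholesterol, had log2 signals of 12.45 for ASX and 12.52 for control on array 1, and 12.53 and 12.63 on array 2. Its ratios were -0.07 and -0.11 (mean -0.09, SD 0.03), so ASX was slightly below control with either dye. Ebp, the sterol isomerase, had -0.0044 and -0.17, and Lss, which closes the ring to lanosterol, had -0.13 and -0.014.

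Cyp51, the lanosterol demethylase, had the lowest mean of these 11, -0.10 from -0.23 and 0.02. Tm7sf2, a sterol reductase, had the highest, 0.08 from 0.26 and -0.10. Both changed sign between arrays, with SDs of 0.18 and 0.25. Fdft1, which makes squalene, had 0.04 and -0.08, and Sqle, which oxidises it in a rate-controlling step, 0.10 and -0.11. The demethylation enzymes Msmo1 (-0.09 and 0.08), Nsdhl (-0.07 and 0.016) and Hsd17b7 (-0.05 and 0.14), and the desaturase Sc5d (-0.06 and 0.07), were each below 0 on array 1 and above it on array 2. Means of the 11 thus ran from -0.10 to 0.08.

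The 5 genes that control SREBP had a median of -0.0098. Insig1, which retains Scap and is itself an SREBP target, had log2 signals of 9.25 for ASX and 8.99 for control on array 1, and 8.97 and 8.92 on array 2. ASX was the higher RNA on both, with ratios of 0.27 and 0.05, a mean of 0.16 (1.12-fold, SD 0.15), so the mean was about as large as the spread between arrays. Scaling on spike-in RNAs turned its mean to -0.12. Insig2, which also retains Scap, had 0.18 and -0.24. Srebf1, the SREBP gene that serves fatty acid synthesis most, had -0.20 and 0.018, the lowest mean of the 5 (-0.09). Srebf2, which serves cholesterol synthesis, had -0.035 and 0.21. Scap had -0.20 and 0.18. These 4 changed sign between arrays.

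The 9 genes of sterol transport, turnover and the liver X receptors had a median of 0.0065. Apoe, the carrier of cholesterol between brain cells, was read by 1 probe printed in 10 spots. Its log2 signals were 17.3 for ASX and 16.67 for control on array 1, and 16.61 and 17.22 on array 2, so the RNA in Cy5 was brighter each time. Its ratio was 0.63 ± 0.06 on array 1 and -0.61 ± 0.05 on array 2 (SD over 10 spots), more than 1.5-fold on each in opposite directions, as 0.135% of genes with a symbol were. With the dyes averaged it was 0.011 ± 0.015 (SD over 10 spots of the same arrays, not over mice), from -0.011 to 0.04 in single spots. On either array alone Apoe would have passed the 1.5-fold rule, and its SD between arrays, 0.88, was the largest of the 31.

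Stard4, a cytosolic sterol carrier, had the highest mean of this group, 0.10 from 0.27 and -0.07. Nr1h3, the gene of LXR alpha, had the lowest, -0.10 from -0.045 and -0.15, and was below 0 on both arrays; Nr1h2, that of LXR beta, had 0.07 and -0.15. Among the exporters that these receptors switch on, Abca1 had 0.09 and -0.038 and Abcg1 -0.07 and 0.08, so both stayed within 0.03 of 0 in the mean. Cyp46a1, the neuronal cholesterol 24-hydroxylase, had 0.25 and -0.14. The proteins that release cholesterol from lysosomes, Npc1 (0.0055 and -0.06) and Npc2 (-0.07 and -0.0056), had means of -0.028 and -0.036. Beside these values, markers of mature oligodendrocytes, which make myelin cholesterol, had a median of -0.06 (9 of 10 measured) and astrocyte markers -0.04 (9 of 9 measured); their part was not tested.

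Probes of 1 gene gave another view of the error. Of the 31, 13 had at least 2 measured probes, and their brightest and next probe differed by a median of 0.045 in mean log2 ratio, beside 0.05 over the 4549 genes with a symbol and several probes. The signs of these 2 probes were equal in 7 of the 13 (53.8%) and in 64.5% of the 4549. In 7 members some probe had the opposite sign of the brightest. Cyp51 had -0.10, -0.06 and 0.12 on its 3 probes, from the brightest to the dimmest. Dhcr7 had -0.09 on its brightest probe and 0.04 on the other, Hsd17b7 0.045 and -0.06, and Srebf2 0.09 and -0.06. Stard4 had 0.10 and -0.0073, with a further probe that was not well above background on array 2. Fdft1 (-0.017 and 0.00080) and Hmgcs1 (0.0099 and -0.016) lay near 0 on both probes.

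In the other 6 the mean ratios of all measured probes had 1 sign. The probes of Lss had means of -0.07 and -0.11, those of Mvk -0.047 and -0.14, and those of Insig2 -0.03 and -0.05. On each array the Insig2 probes had opposite signs, with 0.18 and -0.24 on the brightest and -0.16 and 0.05 on the other. The means of the Nsdhl and Pmvk probes stayed between -0.028 and -0.0026. Insig1, the highest member, had 0.16 on its brightest probe and 0.028 on the other, which had 0.13 on array 1 and -0.07 on array 2. With the mean over its probes it was 0.09 and no longer above 0 on both arrays.

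**Figure D3:**
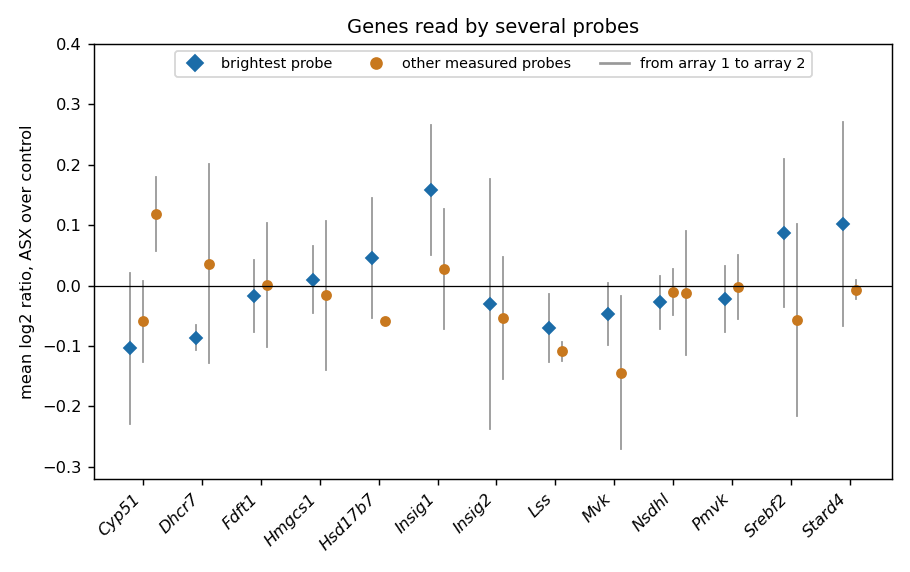
Mean log2 ratio of ASX over control (y axis) for each measured probe of the 13 sterol genes with at least 2, the brightest as a blue diamond and the others as orange circles; grey lines run from the value on array 1 to that on array 2. Probes of Cyp51, Dhcr7, Hsd17b7 and Srebf2 lie on both sides of 0, and both Lss probes below it.

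The wider pathway was read from 94 other genes, 86 of them measured. None was at least 1.5-fold apart on each array, with 0 higher and 0 lower, where 0.0300% of genes with a symbol were higher and 0.0300% lower. The median of the 86 was -0.03. Of 5 other genes of synthesis 4 were measured, with a median of -0.0085. Acat1, the mitochondrial thiolase, had -0.011 and 0.17, and Erg28, which holds the demethylation enzymes together, had -0.18 and 0.07, so both changed sign between arrays. In the isoprenoid branch (10 of 11 measured, median -0.0040) the largest means were 0.08 for Pdss1 and -0.08 for Ggps1, which makes geranylgeranyl diphosphate. Pdss1, of ubiquinone tail synthesis, had -0.05 and 0.21, and its other probe a mean of -0.16. Among genes of SREBP processing and sterol-regulated degradation (12 of 13, median -0.011) the largest means were -0.08 for the protease gene Mbtps2 and -0.07 for Erlin1. Mbtps2 changed sign between arrays (-0.16 and 0.014). It was dim, with a log2 brightness of 6.685 against 10.33 over genes with a symbol.

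Uptake genes had the widest range of the pathway lists, from -0.16 to 0.20 (8 of 9 measured, median -0.05). Mylip, which marks lipoprotein receptors for degradation, had 0.14 and 0.26 on its brightest probe and a mean of -0.04 on the other. Lipa, the lysosomal lipase that frees cholesterol from its esters, had -0.17 and -0.15 on 1 probe, below 0 with either dye. Soat1, which esterifies cholesterol, had -0.23 and -0.15, and its further probes had means of 0.011 and 0.10. It and Apod (-0.10 from -0.22 and 0.03) led the list of efflux, carriers and esterification (10 of 12, median -0.04). Lcat and Pltp, chosen after their values were seen, had nearly equal and opposite ratios on the arrays, with 0.35 and -0.35, and 0.32 and -0.31. Each had 1 measured probe. Opposite signs were found in 59.3% of genes with a symbol, and the part of the dye was not tested.

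In the list of intracellular sterol transfer (14 of 15, median -0.06) Osbpl8, a lipid transfer protein, had a mean of 0.17, with 0.11 on its other probe, and Stard3, a late endosomal sterol carrier, -0.15. The 7 oxysterol and bile acid enzymes had a median of -0.07, with Cyp39a1 at -0.19 (-0.0060 on its other probe) and Ch25h, cholesterol 25-hydroxylase, at -0.16. Signals of this list were dim, with a median brightness of 7.63 on the log2 scale against 10.33 over genes with a symbol. Cyp39a1 had 7.46 and Ch25h 7.63. The 7 partners and targets of the liver X receptors had a median of -0.08. With loess, 4 of them were below 0 on both arrays and 0 above, where 26.4% and 14.3% of genes with a symbol were. Median centring moved those shares of genes with a symbol to 61.4% and 8.92%, and no count of these 7 is given for it. Among the 4 are the retinoid X receptors with which the liver X receptors pair: Rxrg had -0.36 and -0.17 and Rxra -0.24 and -0.08. The fatty acid genes that SREBP-1 switches on had a median of 0.018 (14 of 15 measured). Acaca, acetyl-CoA carboxylase, had a mean of 0.10 and was dim, with a brightness of 7.32. Elovl6, a fatty acid elongase, had a mean of -0.09 from -0.31 and 0.12, opposite signs on the arrays.

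**Figure D4:**
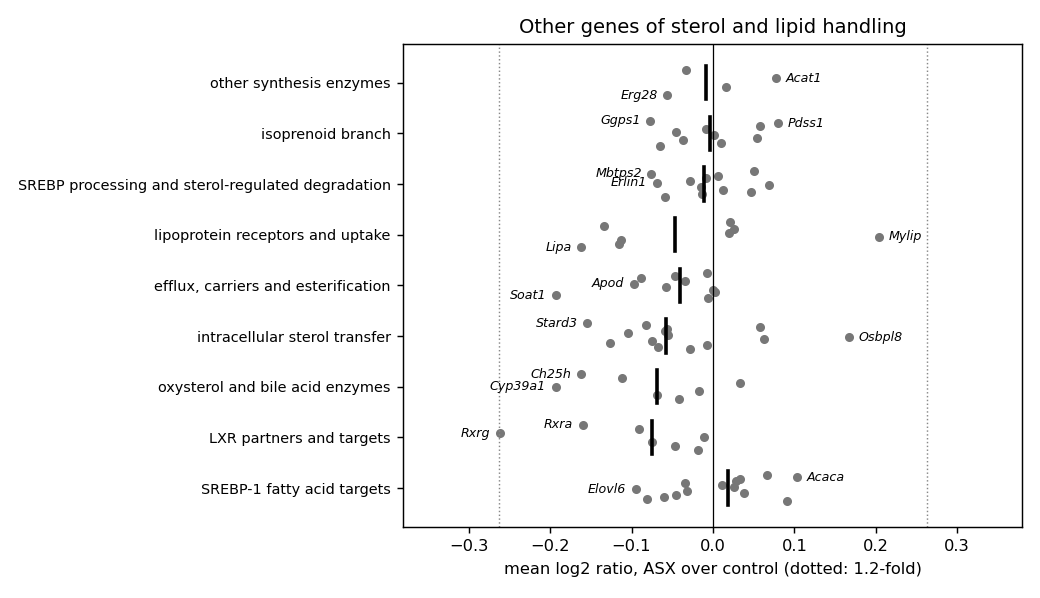
Mean log2 ratio of ASX over control (x axis) of the 86 other measured genes, in rows by list, with black bars at the list medians and names for the 2 genes of largest size in each list. Each mean lies within the dotted lines at 1.2-fold, Rxrg at -0.26 nearest to them, and uptake genes span the widest range.

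The level that counts as equal depended on the scaling. Median centring without loess put the sterol median at -0.21 and that of all genes with a symbol at -0.16, and scaling on spike-in RNAs put them at -0.40 and -0.35. These scalings differ only by 1 constant per array, so the sterol median had to lie the same 0.05 below in both. With median centring 24 of 31 members were below 0 on both arrays, as 61.4% of genes with a symbol were. Loess and the scanner's own log ratios, which also remove dye effects that change with brightness, put the sterol median 0.0024 and 0.02 above that of all genes with a symbol. The members were brighter than most genes, with a median brightness of 11.63 on the log2 scale against 10.33; its part in the 0.05 was not tested. In the mean of the arrays, median centring put 4 members at least 1.2-fold below control (Fdps, Ebp, Dhcr7 and Srebf1), where 14.0% of genes with a symbol were as far apart in either direction, and spike-in scaling put 28 there, against 71.7%. Under each of these scalings 0 members were at least 1.5-fold apart on each array.

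**Figure D5:**
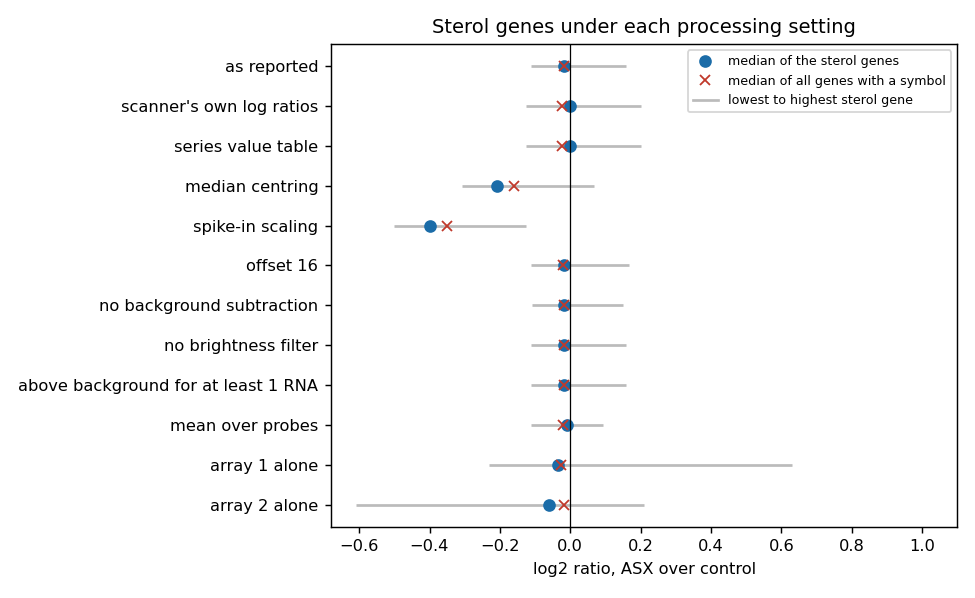
Median log2 ratio of ASX over control (x axis) of the sterol genes (blue circles) and of all genes with a symbol (red crosses) under each processing setting (rows); grey lines run from the lowest to the highest sterol gene. The medians lie at -0.017 and -0.019 as reported and move together to -0.21 and -0.16 with median centring; the long lines for single arrays end at Apoe.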

How the data were processed

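The members and gene lists were chosen with earlier results of these data known. The scanner software was Agilent Feature Extraction 11.0.1.1, per the submitters' processing notes. Deposited intensity values were the median over the pixels of a spot in each channel, beside a median local background, and were not normalized. The deposited log10 ratio of Cy5 over Cy3 came from signals that the software had background-subtracted and dye-normalized, per the file headers. The design named the mean spot signal if present; the files used here give the median.

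In R 4.3.3, limma 3.58.1 corrected the background (normexp, offset 50) and normalized within arrays by loess, giving control spots a weight of 0. The calculation was tested on simulated data with a constant gain per channel. Those data held no dye effect that changes with brightness, so they do not show how well loess removed one here. Control spots (1639) and 3 non-uniform spots were left out. Ratios were turned to log2 of ASX over control and spots of a probe averaged. Of 41171 probes, 23372 matched 1 symbol through a RefSeq table (GRCm38.p6), and 30078 (73.1%) passed the filter of being well above background in each of the 4 channels; a gene took the brightest of these. Signals per RNA were taken after Aquantile scaling between arrays. Spike-in scaling set the mean of the E1A spike-ins to 0 on each array; their nominal ratios, the same on both arrays, cancel in the mean of the turned arrays but not on 1 array.

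All members are described. Named in full were the highest and lowest of each role and those whose probes differed in sign; of other lists, the 2 largest means. A further 4 genes of the planned other lists are not reported here and enter no count of those lists. Alternatives were other ratio sources, scalings, offsets, filters and probe rules, and each array alone.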

Additional observations from a re-analysis of the deposited data

How the results depend on the processing

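No member was at least 1.5-fold apart on each array (0 of 31) under any setting with both arrays; on 1 array alone 1 member passed, Apoe, in opposite directions. The median of the members, -0.017 as reported, was -0.21 with median centring and -0.40 with spike-in scaling, and ran from -0.035 to -0.061 on single arrays. That of the synthesis enzymes, -0.023, was -0.0018 with the scanner's own log ratios and with the series value table, which repeats them, -0.21 with median centring, -0.40 with spike-in scaling and -0.054 to -0.073 on single arrays. The 6 members below 0 on both arrays became 24 with median centring and 29 with spike-in scaling, where 61.4% and 83.1% of genes with a symbol were below 0 on both. On array 1 alone 17 were below 0 and on array 2 alone 19, as 57.0% and 55.1% of genes with a symbol were. The 1 member above 0 on both became 0 with median centring, spike-in scaling and the mean over probes, where 8.92%, 0.428% and 15.4% of genes with a symbol were above. On array 1 alone 14 were above 0 and on array 2 alone 12, as 43.0% and 44.9% of genes with a symbol were. With an offset of 16, no background subtraction and the 2 looser brightness filters, 0 members changed the sign of their mean; 7 did with the scanner's log ratios, 2 with the mean over probes, 11 with median centring and 12 with spike-in scaling. The cause of these shifts was not tested. No paired analysis was possible because the arrays form 1 group. All measured members were well above background; there is 1 replicate of the diet comparison.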
